A study of Mus musculus with 16 samples.

Results

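The semaphorins, Slits, ephrins and netrins are families of guidance ligands, and the plexins, neuropilins, Robos, Eph receptors and Unc5 receptors are their cell-surface receptors. Members were all genes in the deposited tables whose symbol belongs to one of these families: Sema3 to Sema7, Plxna to Plxnd, Nrp1 and Nrp2, Slit1 to Slit3, Robo1 to Robo4, Efna and Efnb, Epha and Ephb, Ntn1 to Ntn5, and Unc5a to Unc5d. This gave 71 genes of the 55305 listed in both tables, in 12 families, with 35 ligands and 36 receptors. Of these, 68 are protein coding. The other 3 are antisense genes that carry the Plxna4 symbol (Plxna4os1, Plxna4os2 and Plxna4os3), and they were listed at 0 in all libraries. No measured value entered the choice.

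The series measured polyadenylated RNA of whole back skin in 10 libraries and RNA of hair follicle stem cells (HFSC) in 6, to ask what GRK2, a kinase that phosphorylates activated G-protein-coupled receptors, does in the homeostasis of the hair follicle. All animals were C57BL/6 mice. Skin came from 5 control and 5 GRK2 eKO samples of mice aged 8 months. HFSC were bulge cells sorted for CD34 and α6-integrin, in 3 control and 3 GRK2 eKO samples. Their labels give an age of 18 months, whereas the design text of the series gives 8 months for both tissues, so this age is not settled. The labels do not spell out "eKO", and they name neither the promoter that removes Grk2 nor the sex of the animals. The genotype is called eKO below. Nothing states which litters or preparation days the samples share, so p-values measure the spread between these samples.

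As background, guidance cues were described first in growing axons, where a cue on one cell attracts or repels another cell through its receptor. Secreted class 3 semaphorins act through neuropilins joined to A-type plexins, transmembrane semaphorins bind plexins directly, Slits bind Robos, ephrins bind Eph receptors across touching cells, and netrins bind Unc5 receptors and Dcc. In skin the same families are known from nerve and vessel patterning and from cell positioning in epithelia.

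The results below turn on 3 genes in particular: Plxna2, an A-type plexin that was lower in both tissues, Robo1, a Slit receptor that was higher in HFSC, and Slit3, a Robo ligand that was lower there. Their promoters are shown as the 250 bases before the start of transcription, from RefSeq on GRCm38.p6, on the plus strand in all 3 cases. The authors' tables use GRCm39, so these positions belong to the reference and not to the measured values. Capitals mark the GC box GGGCGG or its reverse complement CCGCCC, the core that Sp-family factors recognise.
Plxna2, chr1:194619579-194619828: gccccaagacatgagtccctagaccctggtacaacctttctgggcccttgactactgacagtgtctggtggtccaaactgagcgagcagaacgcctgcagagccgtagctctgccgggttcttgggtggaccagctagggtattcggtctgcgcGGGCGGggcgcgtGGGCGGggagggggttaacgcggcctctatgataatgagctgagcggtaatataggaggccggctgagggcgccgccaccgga
Robo1, chr16:72662899-72663148: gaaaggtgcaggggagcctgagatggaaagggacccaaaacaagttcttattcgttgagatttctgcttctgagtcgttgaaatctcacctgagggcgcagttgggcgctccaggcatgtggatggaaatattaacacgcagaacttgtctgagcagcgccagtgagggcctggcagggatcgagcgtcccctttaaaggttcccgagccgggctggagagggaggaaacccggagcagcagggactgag
Slit3, chr11:35121206-35121455: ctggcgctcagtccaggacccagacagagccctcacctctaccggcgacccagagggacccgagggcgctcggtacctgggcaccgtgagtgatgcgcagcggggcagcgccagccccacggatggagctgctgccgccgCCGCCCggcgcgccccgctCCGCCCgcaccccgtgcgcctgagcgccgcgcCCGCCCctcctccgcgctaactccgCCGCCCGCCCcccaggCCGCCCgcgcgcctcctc
The Plxna2 window holds 2 GC boxes and 18 CpG dinucleotides, the Robo1 window holds 0 and 11, and the Slit3 window holds 6 and 35, counting overlapping matches. Of 71 members, 59 had an entry in the promoter table, with 75 promoters. A GC box on either strand stood in 70.7% of the members' promoters and in 32.7% of all 32851 promoters of this length. It stood in 55.6% of the 18 promoters of members past the threshold in HFSC and in 80% of the 35 promoters of members tested there and not past it. The box TATAAA, or TTTATA on the other strand, stood in 2.67% of the members' promoters and in 12.4% of all. These are matches of letters, not mapped sites. The shares over all promoters were not limited to protein-coding or expressed genes.

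Depth was 8.214 M to 16.38 M reads over genes per skin library and 6.428 M to 9.387 M per HFSC library, where M is the prefix mega. Grk2 itself, counted over the whole gene, did not pass the threshold, with a log2 fold change of -0.22 in skin (adjusted p 0.343 in limma) and -0.24 in HFSC (adjusted p 0.501 in limma). The HFSC libraries carried the 8 bulge markers of a fixed list (Cd34, Itga6, Krt15, Lgr5, Sox9, Lhx2, Nfatc1, Tcf7l1) at a summed value of 154345 to 157434 in control and 134285 to 153395 in eKO libraries. Values of Y-linked genes summed to at most 1.9 in skin control replicate 5 and skin eKO replicate 3 and to at least 2300 in the other skin libraries. In HFSC the Y-linked gene Ddx3y was at 1176 to 1216 in control and 359 to 434 in eKO libraries, and the part of this in the members' results was not tested.

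Values are the authors' normalised read counts, and fold changes are differences of log2(value + 1), eKO minus control, which understate the change of low genes. A member was tested where at least 5 skin or 3 HFSC libraries had a value of 10 or more, and it passed the threshold at a limma adjusted p below 0.05 over all genes tested. In bulk RNA, fewer cells of a type and less RNA per cell cannot be told apart.

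In skin, Plxna2 fell and Robo2 rose in eKO animals, and no other member passed the threshold. The 62 members tested therefore held 2 calls, or 3.23%, against 62 calls among 16589 genes tested, or 0.374%. At an unadjusted limma p below 0.05 there were 8 members. The share of all genes at that cut was not counted, so no excess is read from these 8. The median log2 fold change of the 62 was 0.16, beside 5.9e-05 over all genes, and 43 members had a positive and 19 a negative value. The 9 members not tested in skin were the 3 antisense genes and Ntn5, all listed at 0, and Epha5, Epha6, Epha8, Robo3 and Unc5d.

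In HFSC, 14 members rose and 3 fell. The risers were the Slit receptors Robo1, Robo2 and Robo4, both neuropilins, the Eph B receptors Ephb1 and Ephb2, the plexins Plxnb2 and Plxnd1, and the ligands Ntn1, Sema6a, Sema4g, Sema3d and Efnb2. The fallers were Plxna2, Slit3 and Sema3c. The 17 calls were 36.2% of 47 members tested, against 19.4% of 13784 genes. Higher members made up 29.8% against 10.7% of all genes tested, and lower members 6.38% against 8.74%. The median log2 fold change was 0.15 over the members and -0.03 over all genes. Of the 17, 4 (Ephb2, Ntn1, Plxnd1 and Robo4) reached the minimum of 10 only in eKO libraries. These 4 could pass the filter only by being higher there. The other 43 members tested held 13 calls, or 30.2%. Genes that reached the minimum only in eKO libraries were not taken out of the 19.4%.

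By role, of 22 receptors tested, 9 rose and 1 fell, with a median log2 fold change of 0.46. Of 25 ligands tested, 5 rose and 2 fell, with a median of 0.12. Without the 4 members that reached the minimum only in eKO libraries, 6 of 19 receptors rose (median 0.15) and 4 of 24 ligands rose (median 0.11), where 10.7% of all genes tested did. The difference between these shares was not tested. Genes that reached the minimum only in eKO libraries were not taken out of the 10.7%. Of the 24 members untested in HFSC, 11 were listed at 0 in all 6 libraries, namely Epha8, Epha10, Ntn5, Plxnb3, Robo3, Sema3g, Sema4f, Sema5b and the antisense genes.

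**Figure D1:**
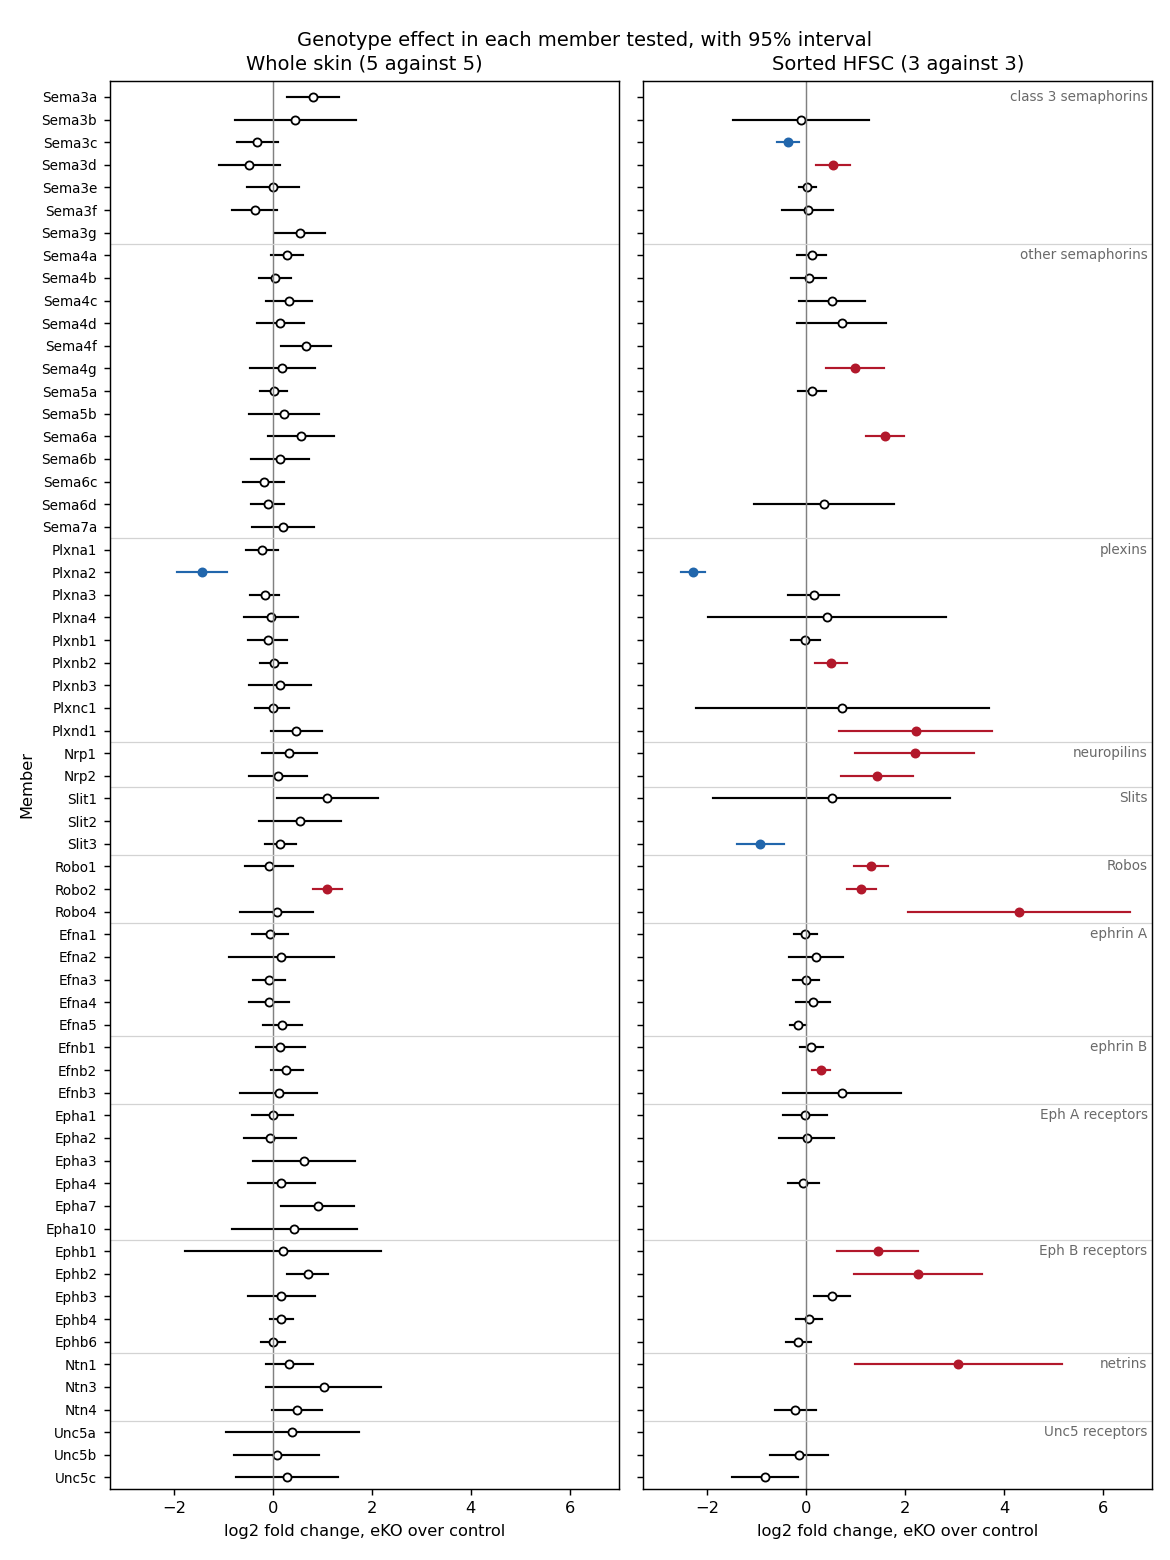
Log2 fold change (x axis, eKO over control, with 95% interval) of each member tested, by family (y axis), in whole skin (left, 5 against 5) and sorted HFSC (right, 3 against 3). Filled red points passed the threshold upward and filled blue points downward; 2 points are filled in skin and 17 in HFSC.

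Set per kilobase of exon, so that genes can be compared, the ephrin A ligands Efna5 and Efna1 held the 2 highest levels of the HFSC controls. Efna5, a membrane-anchored ephrin, stood at 3981 ± 99.4 normalised reads per kb (SD, n = 3), above every other member. Efna1 followed at 1336 ± 48.2 and Sema3e, a secreted semaphorin that binds Plxnd1, at 624 ± 9.56 (SD, n = 3 each). The SDs of these neighbours in the order did not overlap. Next came Efnb1 at 443 ± 9.57, Sema3c at 385 ± 22.7, Efna3 at 380 ± 37.6, Ephb6 at 339 ± 11.3 and Efnb2 at 317 ± 6.99 reads per kb. The remaining ephrin A ligands, Efna4 and Efna2, stood at 198 ± 11.4 and 85.5 ± 27.3. Sema3c and Efna3 lay within their SDs of each other. Thus 7 of the 8 leading members in HFSC were ligands, and Ephb6, an Eph receptor whose kinase domain lacks activity, was the receptor among them.

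Control skin had another order. Efna3 stood at 630 ± 106 reads per kb, Sema3f at 516 ± 187, Efna1 at 505 ± 106, Ephb6 at 497 ± 45.3, Efnb1 at 479 ± 170 and Efna5 at 466 ± 79.8 (SD, n = 5 each). None of these 6 differed from its neighbour beyond the SDs. The tables were normalised separately, so levels are not set against each other across tissues here.

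Among the class 3 semaphorins, Sema3c fell and Sema3d rose in HFSC, and 3 others tested did not pass the threshold. Sema3c was at 2586, 2755 and 2910.4 in control libraries and at 1873, 2178 and 2342 in eKO libraries. All 3 eKO values lay below the lowest control value. This was a log2 change of -0.37 (SE 0.10, adjusted p 0.0218 in limma), and the call was lost when control replicate 2 or 3 was left out (adjusted p 0.086 and 0.0998 in limma). Sema3d, at 585, 454 and 466 in control libraries, reached 680, 637 and 887 in eKO libraries, without overlap. Its log2 fold change was 0.54 (SE 0.16, adjusted p 0.0297 in limma), and 4 of 13 alternatives lost the call. Sema3e, the most abundant of the family per kb, was at 5793 ± 88.8 and 5892 ± 454 (SD, n = 3 each), and the log2 change of 0.02 had a 95% interval of -0.15 to 0.19.

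In skin none of the 7 class 3 semaphorins passed the threshold. Sema3a, the classic repellent of sensory axons, had the smallest p of the family, with control libraries at 217, 174, 102, 122 and 103 and eKO libraries at 269, 269, 173, 212 and 307. The groups overlapped in part, since 2 control libraries reached the lowest eKO value. That is a log2 change of 0.81 (SE 0.24, adjusted p 0.17 in limma). Sema3c had a log2 fold change of -0.32 and Sema3d of -0.48 in skin (adjusted p 0.484 and 0.475 in limma).

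Of the membrane-bound semaphorins, Sema6a and Sema4g rose in HFSC. Sema6a encodes a transmembrane ligand of Plxna2 and Plxna4. It was at 170, 140 and 136 in control libraries and at 434, 511 and 402 in eKO libraries. Each eKO library held more than any control library, with a log2 fold change of 1.59 (SE 0.18, adjusted p 6.22e-05 in limma). Sema4g was at 97.7, 105 and 61 in control and at 185, 190 and 142 in eKO libraries, again without overlap. Its log2 fold change was 0.99 (SE 0.27, adjusted p 0.0233 in limma), and 3 of 13 alternatives lost the call. The other 6 tested had log2 fold changes of at least 0.05, none past the threshold.

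Skin showed no call among the 13 membrane-bound semaphorins. Sema4f had the smallest p, with control values of 17.7 to 39.9 (median 33.4) and eKO values of 42.7 to 55.2 (median 46.8). The groups did not overlap, yet the log2 fold change of 0.67 (SE 0.23) came with a limma adjusted p of 0.223. Sema6a in skin had a log2 fold change of 0.56 (SE 0.30, adjusted p 0.438 in limma), and its difference from the HFSC effect was 1.02 (SE 0.42, adjusted p 0.168 in limma). Sema6b, another ligand of A-type plexins, was at 169 ± 58.3 in control and 181 ± 47.3 in eKO skin (SD, n = 5 each), and at most 3.29 in any HFSC library.

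Plxna2 was the member with the largest fall in both tissues. It encodes a receptor for class 3 semaphorins, with neuropilins, and for Sema6a. In HFSC it was at 2103, 2142 and 2148 in control libraries and at 411, 411 and 485 in eKO libraries. The groups lay far apart, with means of 2131 ± 24.1 and 436 ± 42.5 (SD, n = 3 each); on the log2(value + 1) scale it fell by 79.6%. The log2 fold change was -2.29 (SE 0.11, adjusted p 4.67e-08 in limma), and it ranged from -2.37 to -2.25 over 13 alternatives. Per kilobase of exon, Plxna2 was the most abundant plexin of the HFSC controls, at 124 ± 1.4 reads per kb.

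Skin Plxna2 was at 953, 981, 1411, 2133 and 975 in control libraries and at 380, 487, 560, 493 and 364 in eKO libraries. Every eKO library lay below every control library, and control replicate 4 was the highest. Its log2 change was -1.44 (SE 0.23, adjusted p 0.0375 in limma). This call was close to the threshold: 11 of 18 alternatives lost it, with limma adjusted p up to 0.111, while the log2 fold change stayed between -1.60 and -1.24. Those 11 were scaling by library size only (adjusted p 0.0519 in limma), leaving out any 1 library except control replicate 4, and keeping only the 8 libraries with Y-linked reads. DESeq2 gave an adjusted p of 2.8e-06. The fall in HFSC exceeded that in skin by 0.85 log2 units (SE 0.31), which did not pass the threshold (adjusted p 0.12 in limma).

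Other plexins went another way or did not pass. Plxnb2, a receptor for class 4 semaphorins, was at 389, 399 and 441 in HFSC controls and at 702, 535 and 521 in eKO libraries. The values did not overlap, with a log2 fold change of 0.50 (SE 0.15, adjusted p 0.0345 in limma), and 5 of 13 alternatives lost the call. Plxnd1, the Sema3e receptor known from endothelium, was at 4.99, 8.42 and 3 in control and at 54.6, 24.1 and 14.9 in eKO libraries. All eKO values were above the controls but spread widely. The log2 fold change of 2.21 (SE 0.71, adjusted p 0.0464 in limma) was lost in 9 of 13 alternatives. Plxna4, another A-type plexin that binds Sema6a, was at 20.9, 11.6 and 3 in control and at 3.03, 5.48 and 100 in eKO libraries. A single eKO library, replicate 3, held nearly all eKO reads of this gene. Its log2 fold change was 0.42 with a 95% interval of -1.98 to 2.82. Plxna1, Plxna3, Plxnb1 and Plxnc1 did not pass in either tissue where tested.

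Both neuropilins, the co-receptors of class 3 semaphorins and of vascular endothelial growth factor, rose in HFSC. Nrp1 was at 17, 12.6 and 6 in control libraries and at 54.6, 32.9 and 85.2 in eKO libraries, and Nrp2 at 36.9, 52.6 and 75 against 149, 105 and 189. Neither gene overlapped between groups. The log2 fold changes were 2.19 for Nrp1 (SE 0.55, adjusted p 0.0149 in limma) and 1.43 for Nrp2 (SE 0.33, adjusted p 0.01 in limma). Leaving out eKO replicate 3 ended both calls (adjusted p 0.0697 and 0.0509 in limma), and leaving out control replicate 3 ended that of Nrp1 (adjusted p 0.0556 in limma). In skin, Nrp1 was at 569 ± 190 and 685 ± 131 (SD, n = 5 each) and Nrp2 at 1397 ± 636 and 1429.8 ± 334, and neither passed the threshold (adjusted p 0.608 and 0.892 in limma).

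All 3 Robo receptors tested in HFSC rose. Robo1, a receptor for Slits, was at 353, 337 and 261 in control libraries and at 763, 705 and 879 in eKO libraries with no overlap. The change amounted to a log2 value of 1.31 (SE 0.16, adjusted p 9.27e-05 in limma). Robo2, its close relative, was at 517, 551 and 593 in control and at 1000.0, 1359 and 1249 in eKO libraries, again without overlap. Its log2 fold change was 1.11 (SE 0.14, adjusted p 0.000105 in limma). Both calls stood under all 13 alternatives. Robo4, a divergent Robo best known from endothelium, had no read in any control library and values of 13.6, 29.6 and 16 in eKO libraries. Set against a floor of 3 reads per library, it was at least 6.47-fold higher in eKO (adjusted p 0.0119 in limma). Robo3 was listed at 0.

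In skin, Robo2 rose while Robo1 did not pass the threshold. Robo2 was at 447, 372, 296, 358 and 313 in control libraries and at 753, 687, 797, 666 and 929 in eKO libraries. The lowest eKO library lay clearly above the highest control. The log2 fold change was 1.10 (SE 0.13, adjusted p 0.0096 in limma). It was called under 17 of 18 alternatives. The exception kept only the 8 libraries with Y-linked reads, an alternative chosen after the data were seen, where the log2 fold change was 1.04 and the limma adjusted p 0.107; in that limma fit 0 of 62 members and 0 of 16581 genes passed, with 9 members and 1790 genes at an unadjusted p below 0.05. Robo1 was at 984, 909, 1180.0, 2145 and 1406 in control skin and at 863, 1222, 1341, 1309.7 and 1306 in eKO skin. The values overlapped almost fully, with a log2 fold change of -0.08 (SE 0.22, adjusted p 0.902 in limma). Robo4 was at 169 ± 72.4 and 170 ± 60.4 in skin (SD, n = 5 each).

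**Figure D2:**
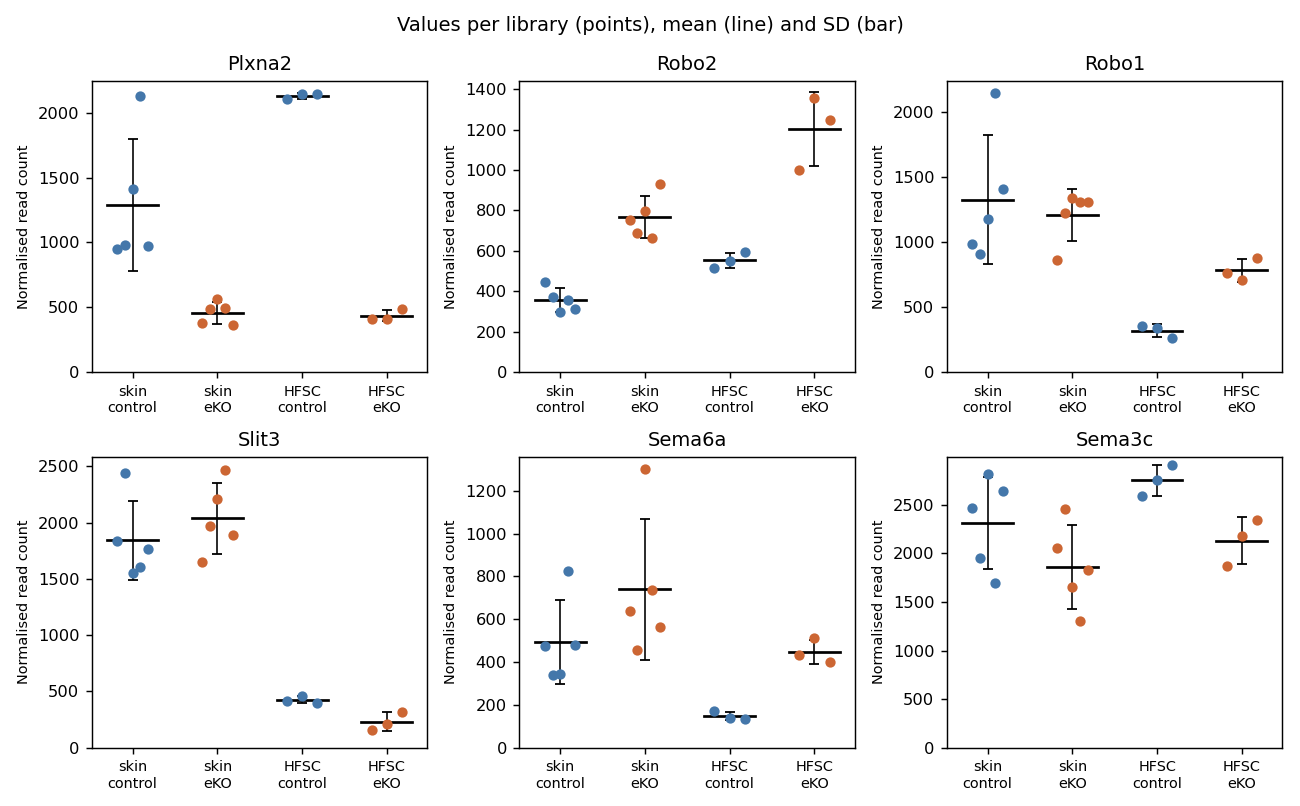
Normalised read count per library (y axis, from 0) for 6 members in the 4 groups, with the mean as a line and the SD as a bar. The tables of skin and HFSC were normalised separately, so only groups of one tissue are comparable; Plxna2 is lower and Robo2 higher in eKO in both tissues, and the genotypes of HFSC do not overlap for Robo1, Slit3, Sema6a and Sema3c.

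Of the Slit ligands, Slit3 fell in HFSC. Slit3, a secreted Robo ligand, was at 416, 463 and 401 in HFSC controls and at 162, 213 and 321 in eKO libraries. All eKO values were below the controls, with eKO replicate 3 the nearest to them. This was a log2 change of -0.93 (SE 0.22, adjusted p 0.0111 in limma), and without control replicate 2 the limma adjusted p was 0.0626. Slit1 was at 12, 2.1 and 11 against 0.758, 31.8 and 23.4, with no call, and Slit2 at no more than 22 in any HFSC library and untested. In skin, Slit3 was at 1843 ± 354 and 2039 ± 313 (SD, n = 5 each), with a log2 fold change of 0.15 (adjusted p 0.684 in limma). Slit1 had a log2 fold change of 1.10 in skin (SE 0.46, adjusted p 0.313 in limma) from overlapping values of 14 to 64.1 and 42.7 to 146. Slit2 had one of 0.55 (SE 0.38, adjusted p 0.563 in limma).

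Of the Eph B receptors, which bind ephrin B ligands, 2 rose in HFSC. Ephb1 was at 69.8, 30.5 and 92 in control and at 128, 210 and 151 in eKO libraries. Ephb2 was at 3.99, 8.42 and 6 in control and at 32.6, 35.1 and 28.8 in eKO libraries. For both, every eKO library exceeded every control, and the eKO values of Ephb2 were close together. The log2 fold changes were 1.44 for Ephb1 (SE 0.38, adjusted p 0.0181 in limma) and 2.26 for Ephb2 (SE 0.60, adjusted p 0.0192 in limma), and 3 and 2 of 13 alternatives lost them. Ephb3 stood just outside the threshold, at 245, 264 and 248 against 432, 323 and 336, without overlap, with a log2 fold change of 0.51 (SE 0.17, adjusted p 0.0515 in limma). Ephb4 and Ephb6 had log2 fold changes of 0.06 and -0.16.

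Skin Ephb2 was at 625, 556, 415, 309 and 397 in control libraries and at 753, 628, 772, 637 and 872 in eKO libraries. The groups met without overlapping. The log2 fold change of 0.70 (SE 0.19) had a limma adjusted p of 0.137. DESeq2 called it (adjusted p 0.0308), as did limma with the hair score described below as a covariate (adjusted p 0.0366). DESeq2 called 3.95% and the covariate fit 0.898% of all genes tested in skin, against 0.374% in the main fit.

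Of the Eph A receptors and ephrins tested in HFSC, Efnb2 passed the threshold and the others did not. None of the 3 Eph A receptors tested in HFSC (Epha1, Epha2 and Epha4) passed, with log2 fold changes of -0.06 to 0.0064. None of the 5 ephrin A ligands passed either, with values of -0.17 to 0.20. Efna5 was at 16510.0, 15859 and 15779.9 in control and at 15678, 13257 and 14064 in eKO libraries. The groups did not overlap, but the change of -10.9% had a limma adjusted p of 0.133. Efnb2, the transmembrane ephrin that marks arteries and binds Eph B receptors, rose from 2227, 2152 and 2138 to 2582, 2690.0 and 2759. This was a log2 fold change of 0.30 (SE 0.08, adjusted p 0.0247 in limma), the smallest among the calls, and 5 of 13 alternatives lost it. In skin, the smallest p of each family belonged to Epha7 (log2 fold change 0.90, adjusted p 0.251 in limma), Efna5 (0.19, 0.68) and Efnb2 (0.27, 0.435).

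Netrin 1 rose in HFSC from values near 0. Ntn1 was at 0, 1.05 and 4 in control and at 17.4, 27.4 and 10.7 in eKO libraries. The eKO values were low but above all controls, and the fitted log2 fold change was 3.07 (SE 0.97, adjusted p 0.0415 in limma), lost in 7 of 13 alternatives. Ntn4, the netrin with the most reads in HFSC, was at 275 ± 42.6 and 235 ± 29.6 (SD, n = 3 each; limma adjusted p 0.465). In skin Ntn4 had the smallest p of its family, with a log2 fold change of 0.48 (SE 0.23, adjusted p 0.379 in limma), and Ntn1 one of 0.33 (adjusted p 0.538 in limma). Of the netrin receptors, Unc5c was at 168, 124 and 213 in HFSC controls and at 130, 96.5 and 61.8 in eKO libraries. One eKO library lay within the control range, and the log2 fold change of -0.83 (SE 0.31) had a limma adjusted p of 0.0786. Unc5b was at 126 ± 27.1 and 113 ± 24.7 in HFSC. In skin Unc5a had the smallest p among Unc5 receptors, at 3.73 to 72.8 (median 15.2) in control and 15.9 to 27.6 (median 18.7) in eKO libraries, with a limma adjusted p of 0.812.

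**Figure D3:**
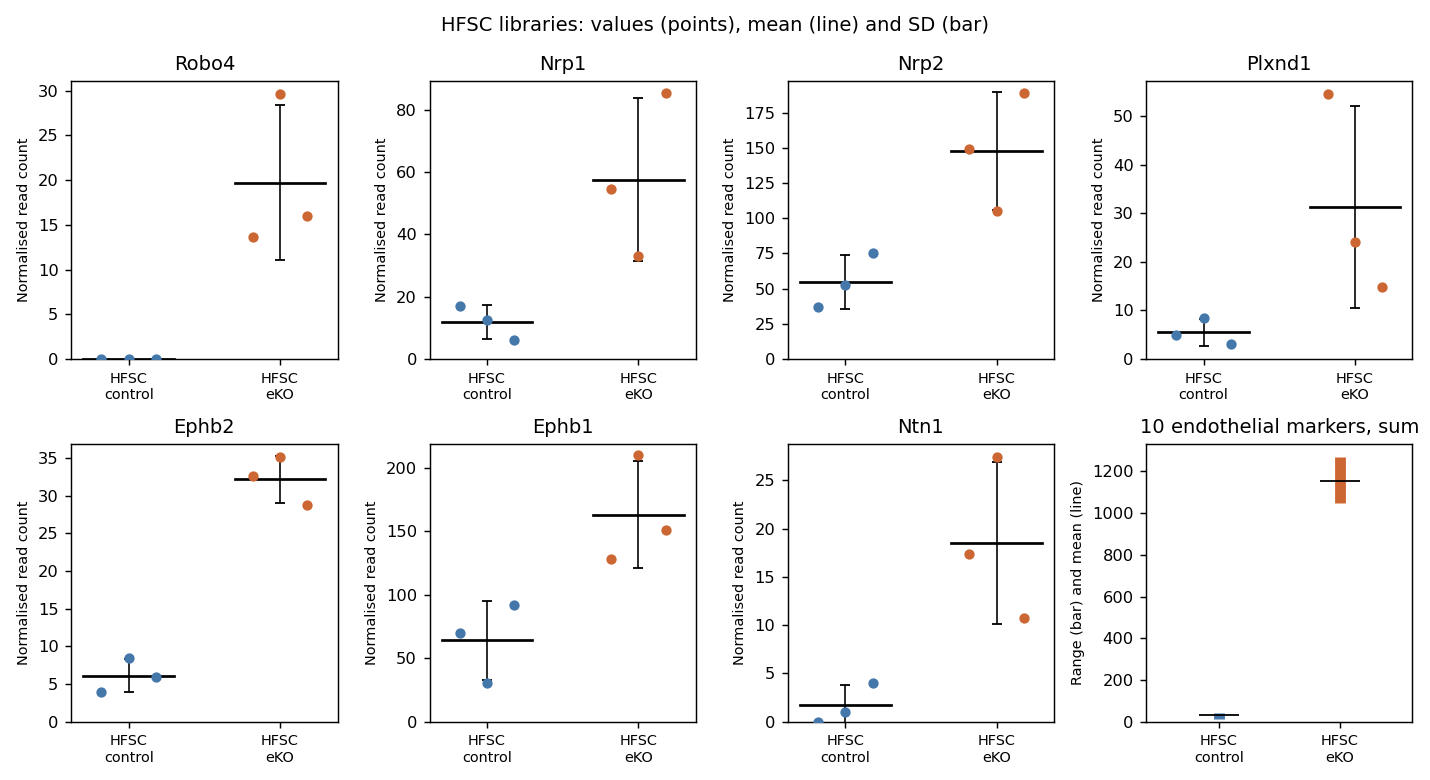
Normalised read count per HFSC library (y axis, from 0) for 7 members that rose, with the mean as a line and the SD as a bar; the last panel gives the range and mean of the summed value of 10 endothelial markers. Each member's eKO points lie above its control points, and the marker sum is 14.7 to 44 in control and 1046 to 1269.7 in eKO libraries.

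Several risers are also known from blood vessels, and endothelial markers moved with them. Of 10 endothelial markers, 8 were tested in HFSC and 7 rose (Pecam1, Cdh5, Vwf, Kdr, Plvap, Esam and Emcn), while Tie1 did not pass. Over all genes tested in HFSC, 10.7% rose. Of these 8 markers, all but Pecam1 reached the minimum of 10 only in eKO libraries. They could pass the filter only by being higher there. The summed value of the 10 markers was 14.7 to 44 in control and 1046 to 1269.7 in eKO libraries. Vwf, Emcn and Cldn5 were at 0 in all controls, and Egfl7 and Cldn5 were at 0 in all eKO libraries. The part of these reads in the rise of Robo4, Nrp1, Nrp2, Plxnd1, Ephb2, Ephb1, Ntn1 and Efnb2 was not tested. In skin, where endothelium is part of the tissue, the same 10 markers summed to 3404 to 5597 in control and 3481 to 7665 in eKO libraries, and none passed the threshold.

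Other marker lists moved in HFSC as well, where 10.7% of all genes tested rose and 8.74% fell. Among hair matrix and shaft genes, 6 of 7 tested rose, with sums of 587 to 646 in control and 2207 to 2453 in eKO libraries; Krt35 was at 0 in the controls. Among leukocyte genes, 2 of 4 tested rose (Cd74 and H2-Ab1) and Lyz2 fell, with sums of 292 to 346 and 1233 to 2155. Schwann cell and nerve markers summed to 1156 to 1375 and 1036 to 1426, with no call among 5 tested and Foxd3 at 0 throughout. Melanocyte markers summed to 198 to 259 and 161 to 180, also without a call. Fibroblast markers summed to 134 to 156 and 84.4 to 134, where Dcn rose and Lum was at 0 throughout. The bulge list held 1 riser, Itga6, and 1 faller, Lgr5. Whether any of these bear on Robo1, Robo2, Sema6a, Slit3, Plxna2 or Ephb1 was not tested. Ephb1 rose with the hair score in skin, as described below.

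The genotype effect differed between HFSC and skin for 6 of the 47 members tested in both, or 12.8%, against 5.62% of 13227 genes. Of these 6, Robo4, Ntn1 and Ephb2 had reached the minimum in HFSC only in eKO libraries. Without such members the count was 3 of 43, or 6.98%, near the share over all genes, from which such genes were not taken out. The fitted effect was higher in HFSC by 4.23 log2 units for Robo4 (adjusted p 0.000193 in limma), a value that depends on the pseudocount, since its HFSC controls held no read, and that ran from 1.47 to 4.44 over the alternatives. It was higher by 2.75 for Ntn1 (adjusted p 0.00939 in limma), by 1.86 for Nrp1 (adjusted p 0.0383 in limma), by 1.56 for Ephb2 (adjusted p 0.0114 in limma) and by 1.39 for Robo1 (adjusted p 0.0174 in limma). Slit3 differed the other way, by -1.08 (adjusted p 0.0264 in limma). Age differs between the tissues per the labels, and so do RNA preparation and library, so none of these can be told apart from tissue. Only differences within a table entered this contrast. It pools the spread of both tissues. Its SE was 0.55 for Robo4, 0.57 for Ntn1 and 0.33 for Ephb2, below the 1.04, 0.97 and 0.60 of their HFSC effects alone. The small p-values of these low genes rest on that pooling.

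Robo2 had nearly the same effect in both tissues: the difference was 0.0044 log2 units, with a 95% interval of -0.43 to 0.44. The paralogs Robo1 and Robo2 therefore had like log2 fold changes in HFSC, at 1.31 and 1.11, and unlike ones in skin, at -0.08 and 1.10. The calls for low genes depended on settings. With a pseudocount of 10, those of Ephb2, Nrp1, Ntn1 and Robo4 were lost, leaving 2 calls; with each tissue's own standard error, those of Ephb2, Nrp1 and Ntn1 were lost, leaving 3. Nrp1 was lost in 15 of 20 alternatives. Robo1 was lost without HFSC control replicate 3 (adjusted p 0.05 in limma), and Slit3 without HFSC control replicate 1 or 2 (0.057 and 0.0693), without HFSC eKO replicate 1 (0.065) or without the 2 skin libraries lacking Y-linked reads (0.0626).

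**Figure D4:**
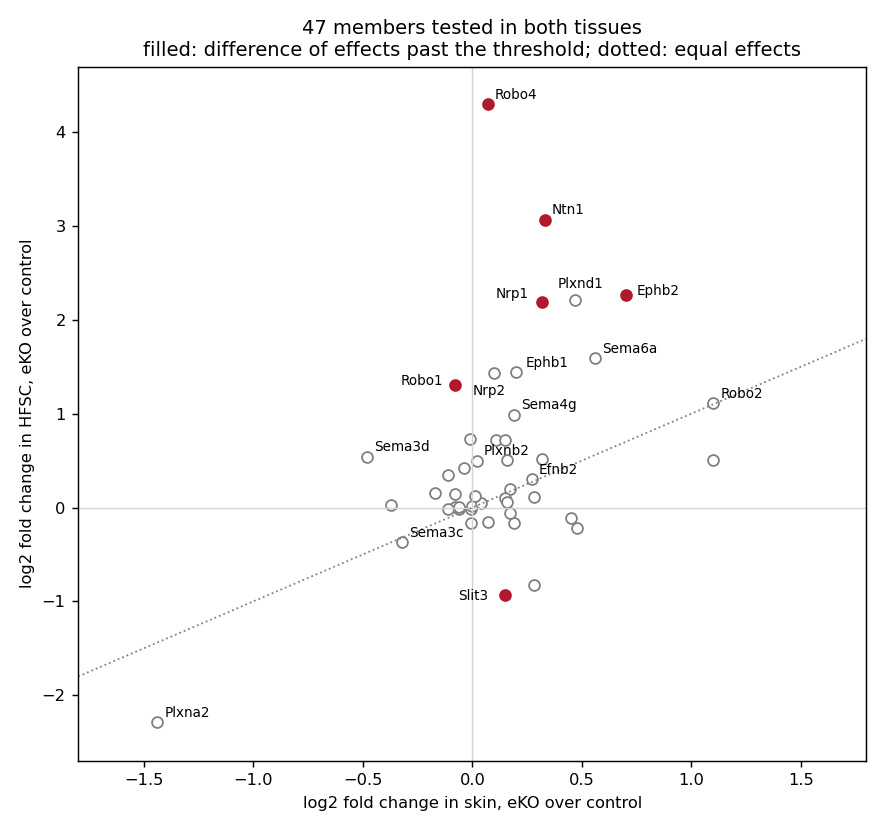
Log2 fold change in skin (x axis) against that in HFSC (y axis) for the 47 members tested in both tissues. Filled points had a different effect in the 2 tissues past the threshold; Robo2 lies on the dotted line of equal effects, and Robo1 stands above it.

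Skin libraries also differed among themselves in hair growth genes. A hair score was taken as the average over the 8 genes of the hair matrix and shaft list, on the log2 scale. It ran from 2.635 to 13.01 in control and from 3.835 to 11.5 in eKO libraries, so the genotypes overlapped. In a limma fit with genotype and score, chosen with the data in view, 4 of 62 members (6.45%) had a slope past the threshold, against 2.71% of 16589 genes. Ephb1 rose most, by 0.4 log2 units per unit of score (SE 0.0599, adjusted p 0.00668 in limma). It was at 18.9 in the library of lowest score, control replicate 1, and at 356 in that of highest score, control replicate 4. Efnb1 rose by 0.0925 (SE 0.0193, adjusted p 0.0366 in limma) and Epha1 by 0.0763 (SE 0.0169, adjusted p 0.0454 in limma). Sema3b, a secreted semaphorin, fell by 0.223 per unit (SE 0.0501, adjusted p 0.0462 in limma).

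Across the 10 skin libraries, Pearson's r of Ephb1 with the score was 0.908 and Spearman's rho 0.964 (permutation p 0.00016 and 7e-05, adjusted over 62 members 0.00744 and 0.00434). Without the 2 libraries farthest from the median score, control replicate 1 and eKO replicate 1, r was 0.915. Epha1 had r of 0.864 and rho of 0.915 (permutation p 0.00024 and 0.00062, adjusted 0.00744 and 0.0192), and r of 0.781 without those libraries. Efnb1 had r of 0.844 and rho of 0.855 (permutation p 0.00253 and 0.00295, adjusted 0.0371 and 0.061), and r of 0.79 without them. For Sema3b, r was -0.795 and rho -0.818 (permutation p 0.00851 and 0.00586, adjusted 0.0754 and 0.0633), and r fell in size to -0.6 without them. Over all 62 members, 6 passed an adjusted permutation p of 0.05 by Pearson's r, and 2 of them, Ephb1 and Epha1, also by Spearman's rho. Correlations were computed for members only, so these counts have no share over all genes beside them. Robo1 was among those that passed by r alone, with r of 0.806 and rho of 0.83 (permutation p 0.00327 and 0.00488, adjusted 0.0371 and 0.0633), r of 0.718 without those libraries, and a slope of 0.0863 (adjusted p 0.0635 in limma). Beside Efnb1, given above, the others were Efnb3 and Unc5a, with r of 0.81 and -0.785 (permutation p 0.00359 and 0.003, adjusted 0.0371 for each) and rho of 0.818 and -0.758 (permutation p 0.00613 and 0.0145, adjusted 0.0633 and 0.11). Without those libraries their r was 0.919 and -0.597. For the genes called for genotype, r was 0.378 for Plxna2 and -0.192 for Robo2 (permutation p 0.278 and 0.581, adjusted 0.434 and 0.736). The slope of Plxna2 was 0.0899 (SE 0.0214), just outside the threshold (adjusted p 0.0546 in limma). With the score as a covariate, the genotype effects of Plxna2 and Robo2 were -1.43 and 1.10 (adjusted p 0.00731 in limma for each).

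**Figure D5:**
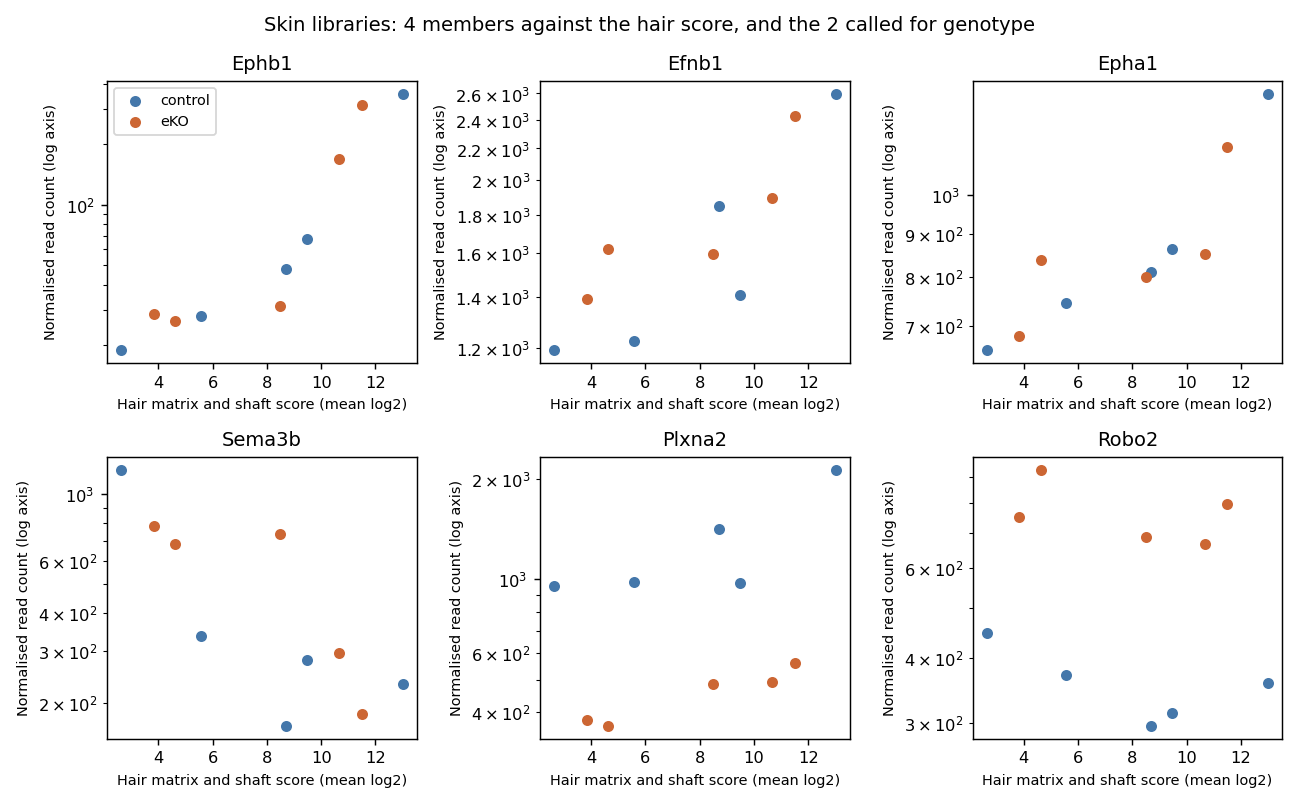
Normalised read count (y axis, log scale) against the hair score (x axis, mean log2 value of 8 hair genes) in the 10 skin libraries, blue for control and orange for eKO. Ephb1, Efnb1 and Epha1 rise and Sema3b falls with the score, while Plxna2 and Robo2 separate by genotype along its whole range.

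The rest of the axon guidance pathway was described with a list of 65 co-receptors, adaptors and effectors. In skin 62 were tested and 0 passed the threshold in limma, 0 in edgeR, where 0.374% of all genes passed in limma. Of the 62, 11 were at an unadjusted limma p below 0.05, a cut at which the share of all genes was not counted. In HFSC 58 were tested and 23 passed (39.7%), 11 higher and 12 lower, with a median log2 fold change of -0.08, where 19.4% of all genes tested passed. The adhesion molecule Cntn1 rose by 3.97 (adjusted p 0.006 in limma), from 1.37 ± 1.19 to 34.9 ± 18.7. Its values were at most 2.1 in control and 20.8 to 56.1 in eKO libraries, so Cntn1 reached the minimum for testing only in eKO libraries. It could pass the filter only by being higher there. Genes of this kind were not taken out of the 39.7% or the 19.4%. Of the collapsin response mediators, which relay semaphorin signals to microtubules, Dpysl3 rose by 2.75 (adjusted p 6.36e-05 in limma) and Dpysl2 by 1.97 (adjusted p 5.91e-06 in limma), from 339 ± 81.7 to 1311 ± 151. The other members of that family listed missed the threshold or were not tested: Dpysl4 had a log2 fold change of 0.13 and Dpysl5 of -0.02 (adjusted p 0.874 and 0.958 in limma), and Crmp1 was below the minimum. Adam10, a protease that cleaves ephrins, rose by 0.94 (adjusted p 0.000138 in limma).

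On the lower side, Flrt2, a ligand of Unc5 receptors, fell by 1.40 on the log2 scale (adjusted p 1.08e-05 in limma), from 2096 ± 137 to 799 ± 145 (SD, n = 3 each). The Slit-Robo GTPase activating proteins Srgap1 and Srgap2, which act below Robo receptors, fell by 0.88 and 0.74 (adjusted p 0.0279 and 0.00399 in limma). Ablim3, an actin-binding protein, fell by 0.84 (adjusted p 0.000288 in limma), and Met, a receptor that plexins can partner, fell by 0.65 (adjusted p 0.0158 in limma).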

How the data were processed

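RNA was measured by bulk sequencing in 16 mouse libraries, and groups follow the genotype and tissue labels. The authors deposited 1 table per tissue whose values are a signal: gene read counts divided by 1 size factor per library, as the values themselves show, since dividing by the smallest step returned whole reads (100% of values within 0.01). GRCm39 is named for both tissues, and featureCounts and DESeq2 for skin, per the submitters' processing notes. Strand and the handling of shared reads are not given in the sources used here. Gene names were matched by identifier to GENCODE M21, for 94.1% of skin and 91.4% of HFSC rows. Exon lengths are union exons of that annotation, on GRCm38.

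The design allowed for counts or normalised values, and the test for normalised values was used: limma 3.58.1 (trend option) on log2(value + 1), for genes at 10 or more in 5 skin or 3 HFSC libraries, with Benjamini-Hochberg adjustment over all genes tested, with a threshold of 0.05. Tissues were fitted separately, and the difference of effects came from 1 fit of 4 group means. The fits were tested on simulated data. edgeR 4.0.16 and DESeq2 1.42.0, run on the recovered reads, a pseudocount of 0.5 or 10, no filter, scaling by library size, the replicate block, a hair score covariate and leaving out each library were the alternatives. Floors of 3 reads cover counting error only. Correlations used 100000 permutations (SciPy 1.17.1), two-sided.

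The members and all gene lists were chosen with earlier results of these data known. Genes named were: in skin, members past the threshold, or the member of smallest p in a family without one; in HFSC, members past the threshold; members whose effect differed between tissues; partners of genes called in skin; and up to 5 pathway genes per direction by size. One pathway gene that this rule names is not reported here. Plxna4, Unc5c, Ephb3, Sema3e, Unc5b, Ntn4, Dpysl4, Dpysl5, Crmp1 and the genes related to the hair score were added after their values were seen.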

Additional observations from a re-analysis of the deposited data

Results flagged for a closer look

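The effect of genotype differed between HFSC and skin, by the interaction contrast in limma, for 6 members. Robo4 had a difference of 4.23 log2 units (limma adjusted p 0.000193), it had no read in the HFSC controls, and the value ran from 1.47 to 4.44 over the alternatives. Ntn1 differed by 2.75 (limma adjusted p 0.00939), Nrp1 by 1.86 (limma adjusted p 0.0383) and Ephb2 by 1.56 (limma adjusted p 0.0114). A t test with each tissue's own limma standard error lost these 3 calls (adjusted p 0.123 for Ntn1, 0.0797 for Nrp1 and 0.163 for Ephb2). Robo4, Ntn1, Nrp1 and Ephb2 each rose in HFSC. The endothelial marker sum was 14.7 to 44 in control and 1046 to 1269.7 in eKO libraries, and its part was not tested. Robo1 differed by 1.39 (limma adjusted p 0.0174), from a higher level in every eKO library of HFSC and overlapping values in skin. Slit3 differed by -1.08 (limma adjusted p 0.0264).

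Robo1 in skin eKO replicate 1 was at 863, below the other 4 eKO libraries, which lay between 1222 and 1341. Its gap to the next library was 0.789 of the range of the group on the log2 scale, above the critical value of 0.71 for 5 libraries. Of 48 groups examined, 1 stood out in this way, where chance gives about 1 in 20.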

How the results depend on the processing

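In skin the 2 calls became 1 with scaling by library size only, 1 to 2 when each library was left out in turn, 0 with only the libraries that hold Y-linked reads (chosen after seeing the data), and 3 with DESeq2 or the hair score as covariate. Over all genes tested in skin, the share called was 0.374% in the main fit, 3.95% in DESeq2 and 0.898% with the covariate. It was 0.193% with scaling by library size only and 0.0596% to 0.339% with libraries left out. The 17 HFSC calls became 9 to 15 when each library was left out, 9 without control replicate 2 or control replicate 3 and 11 without eKO replicate 3, and 14 to 18 under the other settings. Over all genes tested in HFSC, the share called was 19.4% in the main fit and 10.6% to 18.4% with libraries left out. It was 10.8% without control replicate 2, 12.4% without control replicate 3 and 15.8% without eKO replicate 3. For Plxna2, Robo1, Robo2, Robo4 and Sema6a the HFSC call was kept in all 13 alternatives. Robo4 reached the minimum only in eKO libraries, and the alternatives other than the unfiltered fit used a filter of the same kind. The 6 differences between tissues became 2 with a pseudocount of 10, 3 with each tissue's own standard error, and 4 to 8 with libraries left out. Over all genes tested in both tissues, the share was 5.62% in the main fit, 4.6% with a pseudocount of 10 and 6.03% with each tissue's own standard error. Of the pathway list, the 23 HFSC calls became 12 to 24 with libraries left out (12 without control replicate 1, 14 without control replicate 2 or 3), and the count in skin stayed at 0. Apart from fewer libraries where some were left out, the cause of these changes was not tested. Unc5a in skin, not called, reversed to -0.24 in edgeR, -0.23 in DESeq2 and -0.04 without control replicate 4, within -0.04 to 0.95 over the libraries left out. With the replicate block, HFSC members called numbered 15 (Ntn1 and Plxnd1 lost) and pathway genes 22. The labels give no sign that equal numbers pair samples, and the deviations of samples with equal numbers correlated at -0.0602, -0.018 and -0.0256. Among 557 results for single genes under an alternative, 471 kept direction and side of the threshold, 81 lost the call, 2 gained it and 3 reversed. The 557 include skin members not called in the main fit, which had no call to lose. The 81 losses therefore fall among fewer results than 557. Depth limits the members with a few reads per library, chiefly Robo4, Ntn1, Plxnd1 and Ephb2 in HFSC.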
